A study of Mus musculus with 12 samples.

Results

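The comparison set macrophages that lack Alpk1 (KO) beside wild-type macrophages (WT) that had received only PBS, so that the 2 genotypes were read without any ALPK1 agonist. It took the 3 KO PBS and the 3 WT PBS libraries, 6 of the 12 in the series, chosen by their labelled genotype and treatment. The cells were bone-marrow-derived macrophages (BMDMs), primary cells grown from mouse marrow over 7 days in medium conditioned by L929 cells, which supplies the growth factor for macrophage differentiation. The labels give the genotypes as WT and Alpk1 knockout and the strain as C57BL/6N, while the series text says C57BL/6, and PBS was given for 4 h. The other 6 libraries, KO and WT cells given 100 µM ADP-heptose (ADP-Hep) for 4 h, show below how the same genotype difference looked in other libraries, and they also entered the model from which the spread between libraries was estimated.

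ALPK1 is an alpha-kinase that binds ADP-heptose, a sugar nucleotide from which Gram-negative bacteria build lipopolysaccharide. Bound to its ligand it phosphorylates the adaptor TIFA, which gathers TRAF proteins and activates the TAK1 and IKK kinases and then NF-kB. In macrophages this route is known for switching on cytokine and chemokine genes, and the PBS comparison gives the genotype difference before any ligand was added.

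The labels do not say whether libraries came from separate animals or cultures, whether WT and KO mice were littermates, or which part of the gene was deleted. The p-values therefore measure no more than how these libraries vary, in part perhaps for technical reasons, and Alpk1 genotype cannot be told apart from any other difference between the mice. Levels are given as CPM, a library's counts for a gene scaled to a common total, not per length, so they are compared between libraries and not between genes. The strand setting of the counting is not given in the sources used here, so reads of overlapping genes may be shared. Changes are log2 fold changes, KO minus WT, from edgeR's quasi-likelihood test with Benjamini-Hochberg adjustment over all 12261 genes tested. A gene was called higher or lower where adjusted p was under 0.05. The SE after ± was derived from the size of the change and its F statistic (change over root F) and is approximate.

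The 6 libraries held 16236443 to 30670599 counts, of which 12438862 to 23272663 lay in the 37542 rows of the table used here. KO library 1 stood apart in mitochondrially encoded mRNAs, which summed to 3523 CPM there and to 6349 to 8026 CPM in the other 5. Macrophage markers summed to 33548 to 35836 CPM in WT and 35682 to 36636 CPM in KO libraries. The T cell gene Cd3e, the B cell gene Pax5 and the haemoglobin genes had no count in any of the 6, but other members of the lymphocyte lists had counts. The B cell list summed to 242 to 251 CPM in WT and 247 to 269 CPM in KO libraries, the T and NK cell list to 2.04 to 2.56 CPM and 3.48 to 4.03 CPM. Of their genes tested, the immunoglobulin gene Ighm (37.2, 39.2 and 37.9 CPM in WT, 45.7, 53.9 and 48.4 CPM in KO) and Cd4 (1.87 to 2.49 and 3.43 to 3.48 CPM) were called higher in KO cells. The Cd4 call was lost without WT library 3 or KO library 1 or 3 (adjusted p = 0.051 to 0.11). In RNA of a whole culture, fewer cells of a type and less RNA per cell cannot be told apart.

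Alpk1 itself (ENSMUSG00000028028; mm10 chromosome 3, 127670310 to 127780527, minus strand) stood at 30.1, 32.1 and 25.9 CPM in WT and 22.3, 20.3 and 21.3 CPM in KO libraries. All KO values lay below all WT values (-0.45 ± 0.08, adjusted p = 0.00037). Reads over the gene thus remained in the KO libraries, and since the deleted part is not given, the size of the drop does not check the genotype. Against a change of at least 1.5-fold, the glmTreat test of edgeR did not call Alpk1.

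Without ligand, KO and WT macrophages differed in many genes by small amounts. Of the 12261 genes tested, 683 were higher in KO cells (5.57%) and 714 lower (5.82%), 11.4% in all. The median absolute change of the 1397 called genes was 0.29, and 1168 of them (83.6%) differed by less than 1.5-fold. Only 54 higher and 38 lower genes reached 2-fold. Without KO library 1 the counts were 438 higher and 391 lower, and against a 1.5-fold change glmTreat called 15 higher and 16 lower.

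**Figure D1:**
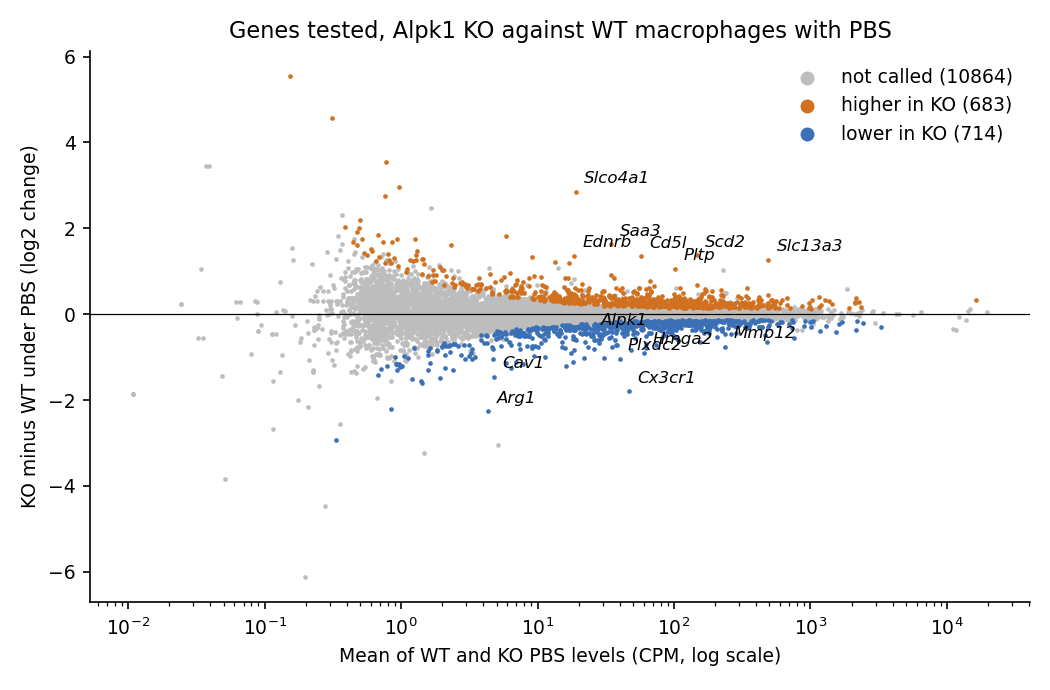
Each point is a gene tested, with its mean PBS level (CPM, log scale) on the x axis and its KO minus WT log2 change on the y axis; 683 genes called higher in KO are orange, 714 called lower are blue. Most called genes lie close to 0, with a median absolute change of 0.29, while Scd2 (1.38), Saa3 (1.63) and Cx3cr1 (-1.79) stand away from the rest at their levels.

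Among ALPK1 pathway genes, 0 of 14 tested were higher and 2 were lower (14.3%, beside 5.82% of all genes), Alpk1 and Traf3. The median change of the list was 0.08 against 0.0013 over all genes. Traf3, which restrains the non-canonical NF-kB kinase NIK and links Toll-like receptors to interferon induction, held 40.8, 41.5 and 40.7 CPM in WT and 27.1, 28.7 and 28.8 CPM in KO libraries (-0.54 ± 0.06, adjusted p = 2.8e-07). Its groups did not overlap. Tifa, the adaptor phosphorylated by ALPK1, lies 9278 bases from Alpk1 and was not called (0.15 ± 0.06, adjusted p = 0.0853). Without WT library 3, 2 members were called higher.

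Among called genes that have a name, reach 5 CPM in 1 group and do not overlap between groups, the 15 largest increases in KO cells ran from Slco4a1 (2.85) to Fads2 (0.88). Scd2, a stearoyl-CoA desaturase (chromosome 19, 44293674 to 44306864), held 81.3, 85.2 and 78.7 CPM in WT and 200, 217 and 221 CPM in KO libraries. Each KO value was more than 2-fold above each WT value (1.38 ± 0.05, adjusted p = 2.4e-16). Saa3, an acute-phase serum amyloid (chromosome 7, 46711998 to 46715700), had 16.3, 18.2 and 16.4 CPM in WT against 50.6, 48.4 and 58.2 CPM in KO libraries (1.63 ± 0.08, adjusted p = 6.3e-13). Cd5l, a scavenger-receptor-like protein that macrophages secrete, lay between 31.7 and 32.5 CPM in WT and between 77.9 and 86.1 CPM in KO libraries (1.35 ± 0.06). The WT libraries were thus nearly alike for Cd5l, while the lack of overlap with KO libraries was required by the rule that picked it.

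Slc13a3, Slco4a1 and Slc7a11, which encode transporters, were also among the 15. Slc13a3, which imports dicarboxylates such as succinate together with sodium, held 275, 299 and 288 CPM in WT and 571, 742 and 759 CPM in KO libraries (1.27 ± 0.08, adjusted p = 1.6e-07). KO library 1 was the lowest of the KO libraries and still well above WT. Slco4a1, an organic anion transporter, went from 3.58, 3.35 and 6.03 CPM in WT to 39.9, 10.4 and 50.4 CPM in KO libraries (2.85 ± 0.58, adjusted p = 0.0164). Slc7a11, the cystine importer that feeds glutathione synthesis, went from 7.62, 6.91 and 8.92 to 24.2, 11.3 and 21.5 CPM (1.22 ± 0.27, adjusted p = 0.0215). KO library 2 was the low one for both, at 10.4 CPM for Slco4a1 and 11.3 CPM for Slc7a11. The Slco4a1 call was lost without WT library 1, WT library 2 or KO library 1 (adjusted p = 0.055, 0.058 and 0.06), and the Slc7a11 call without any 1 WT library or KO library 3 (adjusted p = 0.057 to 0.068). Neither was called by glmTreat or in the fit of the 6 PBS libraries alone (adjusted p = 0.12 for each).

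Further increases among the 15 largest spanned several functions. The endothelin receptor gene Ednrb lay at 10.3 to 10.5 CPM in WT and 24.0 to 30.3 CPM in KO libraries (1.36 ± 0.10). Cp, which encodes the ferroxidase ceruloplasmin (1.2 ± 0.08), and Pltp, the phospholipid transfer protein (1.06 ± 0.06), also rose above 2-fold, as did Eps8l1, an actin regulator of the EPS8 family (1.83 ± 0.17), and Arhgef18, a guanine nucleotide exchange factor (1.32 ± 0.12). Smaller differences were seen for the adaptor gene Shb (0.96 ± 0.19), the adhesion gene Pecam1 (0.93 ± 0.16), the membrane protein gene Tmem176a (0.90 ± 0.07) and Fads2, the delta-6 fatty acid desaturase (0.88 ± 0.12).

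By the same rule, the 15 largest decreases ran from Arg1 (-2.26) to Pde1c (-0.97). Cx3cr1, the receptor for fractalkine that tissue macrophages carry (chromosome 9, 119901616 to 120069879), held 71.3, 74.3 and 73.0 CPM in WT and 20.1, 22.3 and 20.7 CPM in KO libraries. Replicates of each group lay within a few CPM of each other, and the groups stood more than 3-fold apart (-1.79 ± 0.06, adjusted p = 1.6e-16). Arg1, which encodes arginase 1 (chromosome 10, 24915221 to 24927484), fell from 8.01, 8.26 and 5.39 CPM to 1.64, 1.38 and 1.37 CPM (-2.26 ± 0.20, adjusted p = 2.1e-08). Acod1, the enzyme that makes itaconate, went from 49.2, 36.1 and 37.0 to 19.3, 18.1 and 23.1 CPM (-1.02 ± 0.14, adjusted p = 0.00057). WT library 1 was the high one for Acod1, and the rule kept only genes whose groups do not overlap.

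The caveolae gene Cav1 (-1.46 ± 0.14) held 6.38 to 7.73 CPM in WT and 2.24 to 2.88 CPM in KO libraries. Other decreases among the 15 largest were Rab4a, a GTPase of endosome recycling (-1.26 ± 0.13), Spata13, another exchange factor (-1.2 ± 0.10), the transcription factor gene Dach1 (-1.17 ± 0.12), the elongation factor gene Eef1a2 (-1.14 ± 0.14), the kinase gene Dmpk (-1.11 ± 0.10), the lipase gene Lipn (-1.05 ± 0.15), Plxdc2 (-1.04 ± 0.07), Flrt2 (-1.01 ± 0.09) and Pde1c, a cyclic nucleotide phosphodiesterase (-0.97 ± 0.10). Ranked by p, the decreases also included Hmga2, a chromatin protein, at 77.8 to 79.6 CPM in WT and 40.1 to 45.0 CPM in KO libraries (-0.90 ± 0.06), and Wdfy1, an endosomal FYVE-domain protein (-0.80 ± 0.06).

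**Figure D2:**
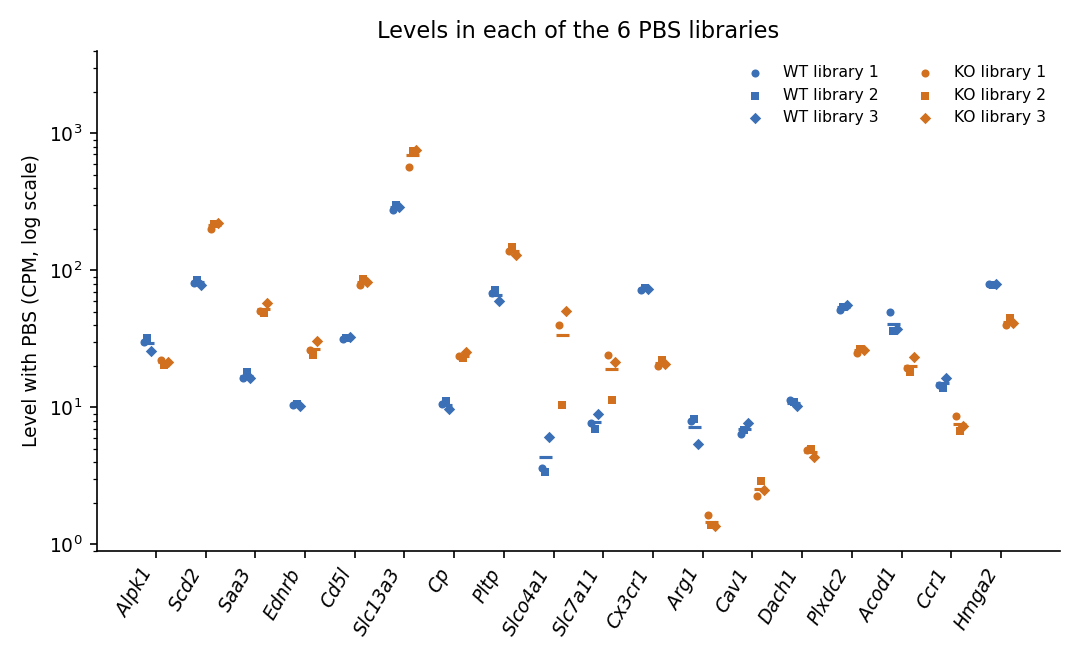
Levels with PBS (CPM, log scale) of 18 genes in each of the 3 WT (blue) and 3 KO (orange) libraries; point shape marks the library number, which does not pair libraries, and short lines are group means. All genes but Alpk1 were chosen among those whose groups do not overlap, so their separation comes from the choice. Alpk1, chosen as the targeted gene, also separates. KO library 2 lies below the other KO libraries for Slco4a1 (10.4 CPM) and Slc7a11 (11.3 CPM).

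Lipid synthesis genes were higher in KO cells as a group. The cholesterol list, covering synthesis and uptake, had 20 of its 25 tested genes higher and 0 lower, with a median change of 0.39 against 0.0013 over all genes, where 5.57% were called higher. Their summed level was 1672 to 1729 CPM in WT and 2160 to 2245 CPM in KO libraries, and 20 were also called higher without KO library 1. Insig1, the ER protein that holds back SREBP processing and is itself an SREBP target, held 91.0, 84.0 and 87.5 CPM in WT and 134, 131 and 138 CPM in KO libraries (0.61 ± 0.05, adjusted p = 1.5e-09). The pathway enzymes Fdft1, squalene synthase (0.60 ± 0.06), Sc5d (0.58 ± 0.05) and Cyp51 (0.50 ± 0.05) differed by similar amounts. None of the 25 was called against a 1.5-fold change.

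Fatty acid genes followed, with 9 of 19 higher (47.4%, beside 5.57% of all genes) and 0 lower and a median of 0.17. Besides Scd2 and Fads2 these included Fasn, the fatty acid synthase, at 119, 112 and 106 CPM in WT and 171, 172 and 198 CPM in KO libraries (0.68 ± 0.06, adjusted p = 1.7e-08), and Acsl3, an acyl-CoA synthetase (0.53 ± 0.08). Without KO library 2, 5 members were called. Genes that the sterol receptor LXR induces and lipid export genes gave 7 higher (35%) and 2 lower (10%) of 20 (median 0.08). Pltp belongs to them, as do the cholesterol exporter Abcg1 (0.61 ± 0.08) and Mylip, a ligase that degrades the LDL receptor (0.60 ± 0.06). Plin2, which coats lipid droplets, went the other way, from 915, 903 and 887 CPM to 608, 626 and 604 CPM (-0.56 ± 0.05, adjusted p = 6.7e-09).

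**Figure D3:**
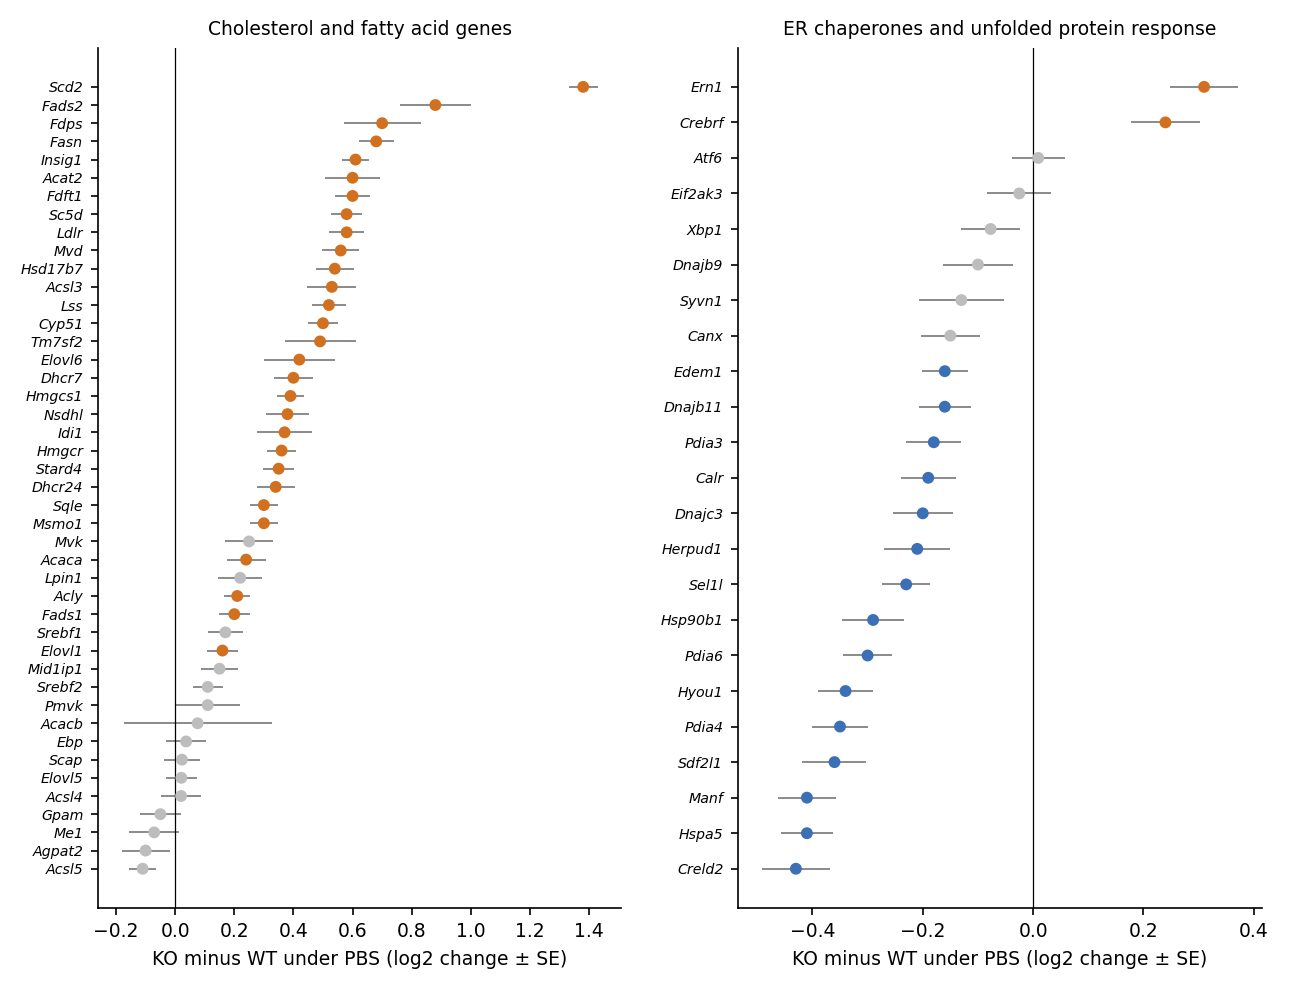
KO minus WT log2 change ± SE under PBS for each tested member of the cholesterol and fatty acid lists (left) and of the ER chaperone list (right); orange is called higher, blue called lower, grey not called. Scd2 (1.38) leads the left panel, where no called gene is below 0, and 15 of 23 genes in the right panel are called lower.

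Promoters were read from RefSeq (GRCm38.p6) for 5 lists, the cholesterol and fatty acid genes here and the ER chaperone, NRF2 and clock lists below. These lists were picked because their members moved together in these data, and each was searched for a DNA element known from genes of its kind. In the 300 bases from 250 before to 50 after each start, the sterol regulatory element searched, TCACNCCAC on either strand, lay in 1 of the 18 cholesterol genes with a promoter in the table, Hmgcs1, and in 0 of 17 fatty acid genes. Over all 32851 promoters the share was 1.24%. Hmgcs1, the HMG-CoA synthase of cholesterol synthesis, was higher in KO cells (0.39 ± 0.05, adjusted p = 1.1e-06). Its stretch (chr13:119690144-119690293, plus strand) reads, with the match in capitals:
Hmgcs1: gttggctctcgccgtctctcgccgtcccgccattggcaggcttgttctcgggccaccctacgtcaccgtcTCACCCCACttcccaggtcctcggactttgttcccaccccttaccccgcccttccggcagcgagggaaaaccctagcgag

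ER chaperones and genes of the unfolded protein response were lower in KO cells: 15 of 23 tested were lower, 2 higher, with a median of -0.19, where 5.82% of all genes were called lower. Their summed level was 9955 to 10926 CPM in WT and 8611 to 9026 CPM in KO libraries. Hspa5, the master ER chaperone BiP, held 1665, 1705 and 1878 CPM in WT and 1281, 1310 and 1358 CPM in KO libraries (-0.41 ± 0.05, adjusted p = 9e-07). The secreted stress factor Manf (-0.41 ± 0.05), the disulfide isomerase Pdia4 (-0.35 ± 0.05) and the chaperone Hyou1 (-0.34 ± 0.05) were lower by like amounts, and Ern1, which encodes the stress sensor IRE1, was higher (0.31 ± 0.06, adjusted p = 0.00095). Without KO library 1, the library low in mitochondrial mRNA, 9 members were called lower, without WT library 1 or KO library 3, 1 was called higher, and none of the 23 was called against a 1.5-fold change.

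The ER stress response element, CCAAT and CCACG with 9 bases of any kind between them, on either strand, lay in 8 of the 20 list members with a promoter in the table (40% of their promoters) and in 0.119% of all promoters. This motif was chosen after the data were seen. Called in either direction were 15 of these 20 members, and 6 of the 15 held the element, so most called members did not. Of the 8, Hspa5, Creld2 (-0.43 ± 0.06), Pdia6 (-0.30 ± 0.05), Hsp90b1 (-0.29 ± 0.06), Dnajc3 (-0.20 ± 0.05) and Calr (-0.19 ± 0.05) were called lower, and Canx (-0.15 ± 0.05, adjusted p = 0.0721) and Syvn1 (-0.13 ± 0.08, adjusted p = 0.318) were not. Calr was not called without KO library 1 (adjusted p = 0.078), nor Dnajc3 without WT library 3 or any 1 KO library (adjusted p = 0.051 to 0.17); without WT library 3, Dnajc3 stood at -0.11. Hsp90b1 held 2 matches, 1 on each strand, and the others 1 each. The matches differ in distance and strand, as these stretches upstream of the starts show, 5′ to 3′ on the gene's strand, with the fixed bases in capitals and a match to the opposite strand reading CGTGG, 9 bases, then ATTGG. Except for Hspa5, which the rule for named genes gave, these genes and Hmgcs1 are named for their match, after their values were seen, and a match describes letters only. They are from chr2:34772020-34772048 (Hspa5, plus), chr8:84847009-84847158 (Calr, minus), chr10:86705520-86705669 (Hsp90b1, minus), chr12:17266379-17266528 (Pdia6, plus), chr14:118937762-118937911 (Dnajc3, plus), chr15:88819455-88819604 (Creld2, plus), chr11:50325734-50325883 (Canx, minus) and chr19:6046426-6046575 (Syvn1, plus).
Hspa5: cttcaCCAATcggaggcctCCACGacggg
Calr: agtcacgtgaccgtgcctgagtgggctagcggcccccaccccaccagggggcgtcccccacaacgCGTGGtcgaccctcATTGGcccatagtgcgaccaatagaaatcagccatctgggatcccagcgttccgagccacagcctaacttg
Hsp90b1: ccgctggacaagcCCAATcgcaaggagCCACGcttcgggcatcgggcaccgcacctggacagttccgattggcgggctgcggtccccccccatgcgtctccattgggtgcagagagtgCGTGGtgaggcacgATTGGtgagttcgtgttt
Pdia6: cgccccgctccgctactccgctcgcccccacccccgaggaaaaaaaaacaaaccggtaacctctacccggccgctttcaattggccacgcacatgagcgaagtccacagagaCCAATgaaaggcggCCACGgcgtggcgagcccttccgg
Dnajc3: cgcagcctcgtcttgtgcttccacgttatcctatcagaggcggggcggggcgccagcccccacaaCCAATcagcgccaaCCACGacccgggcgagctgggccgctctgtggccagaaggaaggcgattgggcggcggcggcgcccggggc
Creld2: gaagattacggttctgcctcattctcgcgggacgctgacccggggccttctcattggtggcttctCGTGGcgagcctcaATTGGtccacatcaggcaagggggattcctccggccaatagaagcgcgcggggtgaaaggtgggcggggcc
Canx: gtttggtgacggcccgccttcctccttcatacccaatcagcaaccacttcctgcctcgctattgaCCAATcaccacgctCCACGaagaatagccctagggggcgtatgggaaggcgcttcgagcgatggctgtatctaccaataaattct
Syvn1: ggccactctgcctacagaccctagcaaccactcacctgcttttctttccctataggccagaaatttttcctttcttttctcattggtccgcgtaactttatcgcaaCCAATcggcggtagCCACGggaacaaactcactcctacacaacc

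Some NF-kB genes were moderately lower in KO cells that had seen no agonist. Of 20 subunits and feedback genes, 8 were lower (40%), 1 was higher (5%) and 11 were not called, with a median of -0.15. Of all genes tested, 5.82% were called lower and 5.57% higher. Nfkbia, the inhibitor IkBα that NF-kB itself induces, held 62.4, 62.1 and 59.9 CPM in WT and 39.8, 41.2 and 44.6 CPM in KO libraries (-0.55 ± 0.06, adjusted p = 9.5e-07). Tnip3, a partner of the ubiquitin editor A20, held 28.6 to 29.8 CPM against 17.2 to 17.3 CPM (-0.77 ± 0.07), and the non-canonical subunits Relb (-0.64 ± 0.07) and Nfkb2 (-0.46 ± 0.07) were lower as well. These 4 were picked as the called members with the smallest p, so the lack of overlap between their groups follows in part from that choice. None of the 20 was called lower against a 1.5-fold change, and without WT library 1, KO library 1 or KO library 3 no member was called higher.

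Lists of chemokines, cytokines and effector genes moved less uniformly. Chemokines gave 6 lower (28.6%) and 1 higher (4.76%) of 21 (median -0.44), beside 5.82% and 5.57% of all genes. Those lower included Ccl9 at 294, 299 and 320 CPM in WT and 212, 216 and 228 CPM in KO libraries (-0.47 ± 0.05, adjusted p = 1.6e-07), Cxcl14 (-0.77 ± 0.07) and the monocyte attractant Ccl2 (-0.55 ± 0.14). Without KO library 3, 3 chemokines were called lower, and Ccl2 was not called without KO library 1 (adjusted p = 0.054). The chemokine median was the value of Cxcl2 (-0.44 ± 0.25, adjusted p = 0.28), which averaged 1.58 CPM in WT and 1.22 CPM in KO libraries. Several members lay lower still, such as Cxcl3 at 0.0454 and 0.0249 CPM, so this median rests in part on genes with few counts. The 1 chemokine called higher averaged 0.181 CPM in WT and 0.822 CPM in KO libraries. Of 16 inflammatory cytokines tested, only Tnf was called, a share of 6.25% lower that is near the 5.82% of all genes. Tnf held 11.7, 8.19 and 9.17 CPM in WT and 6.79, 6.53 and 7.49 CPM in KO libraries (-0.49 ± 0.13, adjusted p = 0.0125). That call was lost without WT library 1, KO library 1 or KO library 2 (adjusted p = 0.057 to 0.076). The list of inflammatory effector genes, mostly enzymes, gave 5 lower (27.8%) and 3 higher (16.7%) of 18. Acod1, Arg1 and the arginine-synthesis gene Ass1 (-0.48 ± 0.09) were among those lower, and Saa3, which is not an enzyme, among those higher. Without WT library 2 or KO library 2, 3 effector genes were called lower, and without WT library 1, KO library 1 or KO library 3, 1 was called higher.

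Sensors and early-response genes were mixed. Of 33 Toll-like receptor and innate sensor genes, 6 were lower and 2 higher, with Tlr2, which recognises bacterial lipopeptides, at 117, 120 and 116 CPM in WT and 80.2, 81.2 and 86.6 CPM in KO libraries (-0.51 ± 0.05, adjusted p = 4.5e-08). Tlr13, a sensor of bacterial ribosomal RNA (-0.30 ± 0.05), and Irak3, a brake on Toll-like receptor signalling (-0.25 ± 0.05), were also lower. Without WT library 2, KO library 1 or KO library 3, 1 sensor was called higher. The sensor shares were 18.2% lower and 6.06% higher, beside 5.82% and 5.57% of all genes. Of 47 interferon-stimulated genes, 4 were lower and 2 higher (median -0.16), a share near that of all genes. Ddx58, which encodes the RNA sensor RIG-I, was lower (-0.42 ± 0.08), and Ifi27l2a held 24.0 to 28.7 CPM in WT and 44.2 to 50.3 CPM in KO libraries (0.83 ± 0.07). Without KO library 1, 1 interferon-stimulated gene was called lower, and without WT library 1 or WT library 3, 2. Of 27 immediate-early genes 1 was lower (3.7%), Fos (-0.78 ± 0.09), and 3 were higher (11.1%), including Atf3 (0.45 ± 0.08). The higher count was 1 without KO library 1 and 6 without KO library 2, and 2 genes were called lower without WT library 2 or KO library 3.

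**Figure D4:**
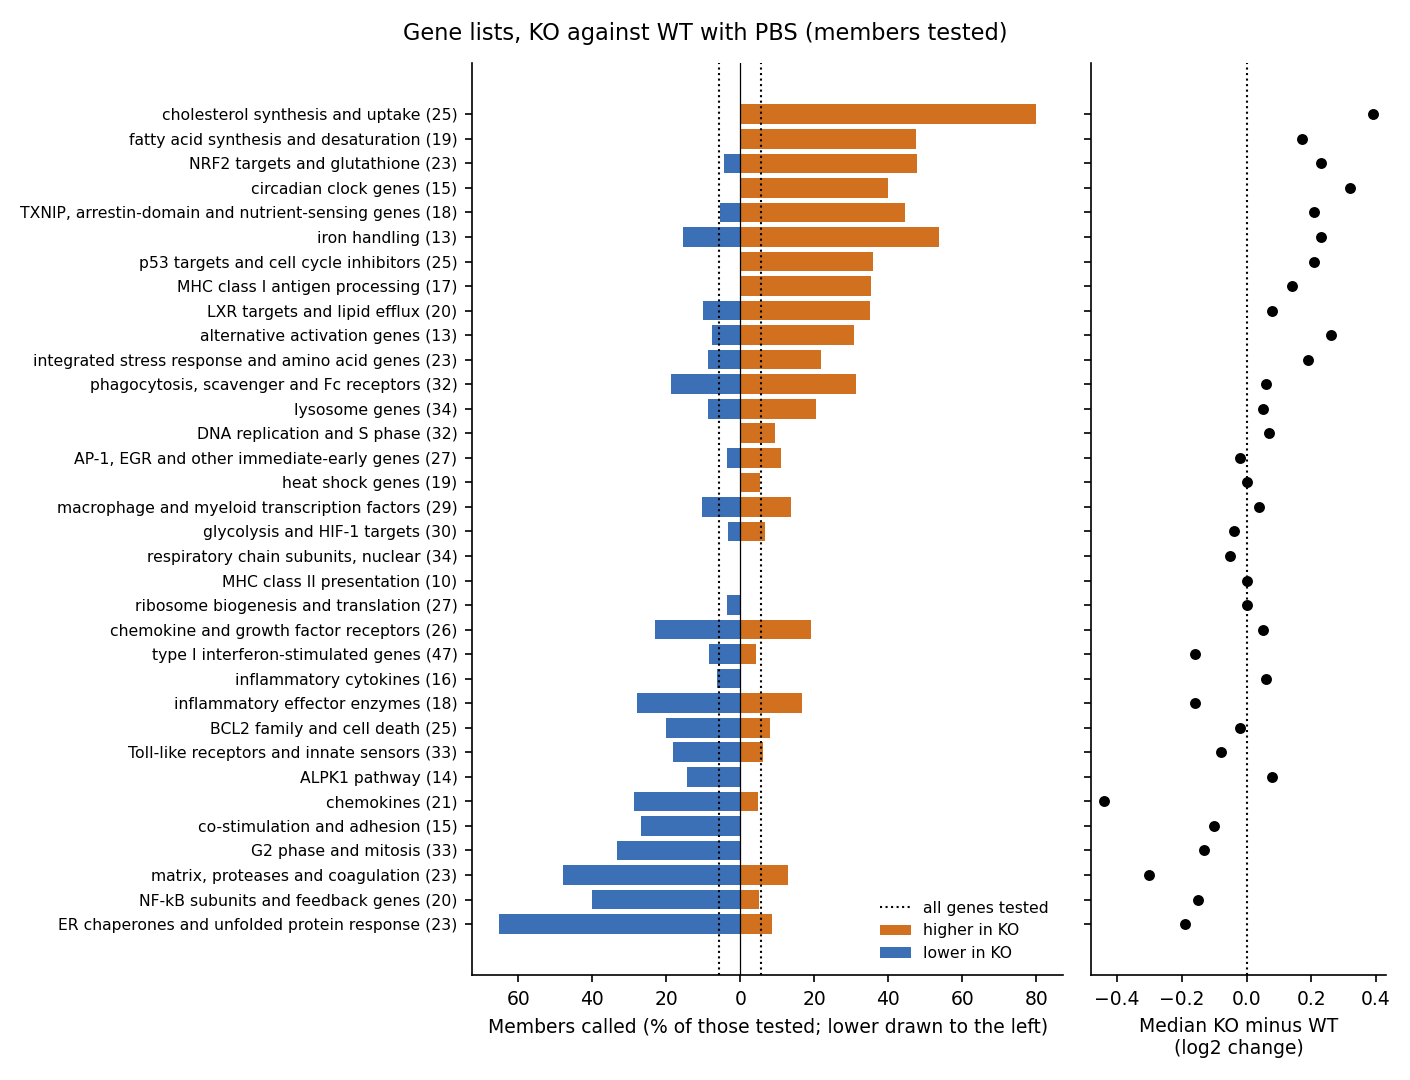
Left, percent of tested members called higher (orange, to the right) or lower (blue, to the left) in KO cells with PBS for each gene list, with the number tested in brackets and dotted lines at the shares of all genes (5.57 and 5.82%). Right, the median KO minus WT log2 change of all tested members of each of these pathway lists (cell type lists are not drawn), from 0.39 for cholesterol genes to -0.44 for chemokines, many of which had few counts.

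Surface receptors and secreted proteases differed gene by gene. Of 26 chemokine and growth factor receptors, 6 were lower (23.1%) and 5 higher (19.2%), beside 5.82% and 5.57% of all genes. Those lower included the chemokine receptors Cx3cr1, Ccr1 (-1.0 ± 0.12) and Ccr2 (-0.61 ± 0.09). Ccr2, the receptor for Ccl2 on inflammatory monocytes, held 32.1, 31.0 and 32.0 CPM in WT and 19.4, 21 and 22.1 CPM in KO libraries. The cytokine receptors Csf3r (0.33 ± 0.07) and Il4ra (0.31 ± 0.05) were higher. Of 23 matrix, protease and coagulation genes, 11 were lower (47.8%) and 3 higher (13%), with a median of -0.30. The macrophage elastase Mmp12 held 296, 288 and 313 CPM in WT and 180, 164 and 187 CPM in KO libraries (-0.76 ± 0.05, adjusted p = 8e-11), and the collagenases Mmp13 (-1.12 ± 0.14) and Mmp8 (-0.32 ± 0.05) were lower too, whereas Mmp27 (0.54 ± 0.07) and the inhibitor Timp2 (0.34 ± 0.04) were higher.

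Uptake and presentation genes split by class. Phagocytosis, scavenger and Fc receptors gave 10 higher (31.2%) and 6 lower (18.8%) of 32, beside 5.57% and 5.82% of all genes. Gas6, which bridges dying cells to TAM receptors (0.40 ± 0.05), and the mannose receptor Mrc1 (0.34 ± 0.04) were higher, and the complement receptor C5ar1 was lower, at 242, 257 and 231 CPM in WT and 162, 176 and 165 CPM in KO libraries (-0.53 ± 0.05, adjusted p = 9.4e-08), with Cd93 (-0.32 ± 0.05). MHC class I genes gave 6 higher (35.3%) and 0 lower of 17. H2-D1 held 997, 1034 and 974 CPM in WT and 1302, 1324 and 1307 CPM in KO libraries (0.39 ± 0.04), with H2-K1 (0.31 ± 0.05) and the light chain B2m (0.31 ± 0.05). H2-D1 and H2-K1 are near-identical, so how reads were shared out between them is uncertain. MHC class II genes gave 0 of 10 in either direction. Lysosome genes gave 7 higher and 3 lower of 34, with the saposin precursor Psap (0.33 ± 0.05) and the protease Lgmn (0.22 ± 0.04) higher and the cathepsin Ctsl lower (-0.28 ± 0.04). Without WT library 3, 4 lysosome genes were called higher. The lysosome shares were 20.6% higher and 8.82% lower, beside 5.57% and 5.82% of all genes. Of 15 co-stimulation and adhesion genes 4 were lower (26.7%), including Cd44 (-0.32 ± 0.04). Without 1 library these were 2 (WT library 1 or 3) or 1 (WT library 2, KO library 1 or KO library 3).

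Redox and iron genes called were more often higher than lower. NRF2 targets and glutathione genes gave 11 higher (47.8%) and 1 lower (4.35%) of 23 (median 0.23), beside 5.57% and 5.82% of all genes. Gclm, the modifier subunit of the enzyme that limits glutathione synthesis, held 266, 259 and 287 CPM in WT and 436, 364 and 451 CPM in KO libraries (0.62 ± 0.07, adjusted p = 4e-06). Prdx1, a peroxiredoxin, was also higher (0.32 ± 0.05), and the glutathione peroxidase Gpx1 was lower (-0.43 ± 0.08). KO library 2 was the lowest KO library for Gclm. The count of members higher was 6 without WT library 1 or 3, 5 without WT library 2 or KO library 1, and 4 without KO library 3. The antioxidant response element searched, TGACNNNGC on either strand, lay in 8 of the 20 members with a promoter (28.6% of their promoters), against 12.4% of all promoters. Of the 11 called members with a promoter, 5 held it. Iron genes gave 7 higher (53.8%) and 2 lower (15.4%) of 13. The iron exporter Slc40a1 was higher (0.42 ± 0.06) and the importer Slc11a2 lower (-0.45 ± 0.06). The lower count was 1 without WT library 1 or 2 or KO library 1 or 3.

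Genes of growth arrest and the clock leaned upward, and mitotic genes downward. Targets of p53 and cell cycle inhibitors gave 9 higher (36%, beside 5.57% of all genes) and 0 lower of 25 (median 0.21). Those higher included Cdkn1a, which encodes the inhibitor p21 (0.31 ± 0.05), and the stress genes Sesn1 (0.27 ± 0.05) and Sesn2 (0.39 ± 0.07). Genes of G2 phase and mitosis gave 11 lower (33.3%, beside 5.82% of all genes) and 0 higher of 33 (median -0.13). Those lower included Hmmr (-0.31 ± 0.06), the kinesin gene Kif23 (-0.29 ± 0.05), Tpx2 (-0.26 ± 0.05) and Anln (-0.22 ± 0.05). The summed level of the list was 4140 to 4243 CPM in WT and 3938 to 3962 CPM in KO libraries. Without KO library 1 the count of members lower was 5, and without KO library 3 it was 7. Genes of DNA replication gave 3 higher (9.38%, beside 5.57% of all genes) and 0 lower of 32, with the licensing factor Cdt1 (0.25 ± 0.06) and the reductase subunit Rrm2 (0.22 ± 0.05).

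Circadian clock genes gave 6 higher (40%, beside 5.57% of all genes) and 0 lower of 15 (median 0.32). Per1, a repressor in the clock's feedback loop, held 27.0, 25.8 and 22.7 CPM in WT and 33.4, 31.8 and 30.5 CPM in KO libraries (0.35 ± 0.07, adjusted p = 0.00165), and Per3 (0.50 ± 0.10) and the clock output factors Dbp (0.43 ± 0.10) and Tef (0.32 ± 0.05) were higher. The times of harvest are not given. The E-box CACGTG, the site of the clock activators, lay in 5 of the 13 list members with a promoter (33.3% of their promoters) and in 7.15% of all promoters. Of the 6 called members with a promoter, 3 held it, Per1 and Tef among them, and Per3 and Dbp did not. The stretch of Per1 (chr11:69098711-69098860, plus strand) is shown as the example with the E-box in capitals. Among nutrient-sensing genes 8 of 18 were higher (44.4%) and 1 lower (5.56%, beside 5.82% of all genes). Those higher included the glucose-sensitive gene Txnip (0.29 ± 0.05), Ypel3 (0.43 ± 0.05) and the glucocorticoid-induced Tsc22d3 (0.40 ± 0.05). The lower count was 0 without WT library 2 or 3 or KO library 1 or 3, and 2 without KO library 2.
Per1: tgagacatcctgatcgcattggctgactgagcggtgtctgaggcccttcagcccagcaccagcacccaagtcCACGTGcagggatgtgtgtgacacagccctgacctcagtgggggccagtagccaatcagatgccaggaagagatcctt

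The lists for the integrated stress response, cell death and lineage factors held calls in both directions. The integrated stress response list gave 5 higher (21.7%), including Asns, the asparagine synthetase (0.44 ± 0.08), and Atf5 (0.55 ± 0.09), and 2 lower (8.7%), including the transcription factor gene Cebpb (-0.37 ± 0.07), of 23. The higher count was 10 without WT library 2 and 8 without KO library 2, and the lower count was 1 without WT library 3 or KO library 1. BCL2 family and cell death genes gave 5 lower and 2 higher of 25, with the survival gene Mcl1 lower (-0.23 ± 0.04) and the death activator Bmf higher (0.33 ± 0.06). With any 1 library left out, 2 or 3 were called lower. The cell death shares were 20% lower and 8% higher, beside 5.82% and 5.57% of all genes. Of 29 macrophage and myeloid transcription factors 4 were higher (13.8%), including Irf8 (0.19 ± 0.05), and 3 lower (10.3%), including Runx3 at 4.12 to 4.88 CPM in WT and 1.92 to 2.26 CPM in KO libraries (-1.05 ± 0.17). Without KO library 1, 1 of them was called higher. Alternative activation genes gave 4 higher (30.8%) and 1 lower (7.69%), Arg1, of 13, or 2 lower without WT library 1.

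Housekeeping lists stayed near 0. Nuclear genes of the respiratory chain gave 0 of 34 in either direction (median -0.05), cytosolic ribosomal proteins 2 lower and 0 higher of 38 (median -0.01) and glycolysis and HIF-1 targets 2 higher, including the hexokinase Hk2 (0.41 ± 0.07), and 1 lower of 30. With 1 library left out, 0 to 1 respiratory chain genes and 0 to 1 ribosomal protein genes were called lower. Left-out libraries gave 1 to 2 higher and 0 to 2 lower glycolysis genes. The glycolysis shares were 6.67% higher and 3.33% lower, beside 5.57% and 5.82% of all genes.

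Markers of cell types were set beside these lists. Of all genes tested, 5.57% were called higher and 5.82% lower. Macrophage markers gave 5 higher (35.7%) and 0 lower of 14. Those higher included Adgre1, the F4/80 antigen, at 1874, 1911 and 2016 CPM in WT and 2236, 2386 and 2402 CPM in KO libraries (0.28 ± 0.05), and Itgam (0.25 ± 0.05). Without WT library 1 or 3 or KO library 1 or 2, 3 macrophage markers were called. Monocyte markers gave 2 lower (18.2%) of 11, Ccr2 and Fn1 (-0.77 ± 0.14), and summed to 291 to 306 CPM in WT and 276 to 299 CPM in KO libraries. Without KO library 2, 1 of them was called higher. Neutrophil markers gave 4 higher (28.6%) and 2 lower (14.3%) of 14 and summed to 341 to 377 CPM in WT and 367 to 392 CPM in KO libraries. Without WT library 1, KO library 1 or KO library 3, 2 were called higher, and without WT library 2 or 3 or any 1 KO library, 1 was called lower. The part of these cells in the gene differences was not tested.

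The region around the targeted gene was read as well. Within 1 Mb of Alpk1, 7 genes were tested, of which 0 were higher and 2 lower (28.6% called). Camk2d, a calmodulin-dependent kinase, held 98.3, 101 and 107 CPM in WT and 77.9, 78.7 and 84.9 CPM in KO libraries (-0.35 ± 0.05, adjusted p = 5.4e-05). Ank2, an ankyrin gene, stood at 1.53 to 2.54 CPM in WT and 0.969 to 1.14 CPM in KO libraries (-0.94 ± 0.27, adjusted p = 0.023), a call that was lost without WT library 1 or 2 or KO library 1 or 3 (adjusted p = 0.067 to 0.11) and by the DESeq2 Wald test (adjusted p = 0.067). Within 5 Mb, 24.1% of 29 genes were called, and within 10 Mb, 17.9% of 56, against 11.4% of all genes. Nnt, a gene in which the C57BL/6J substrain carries a deletion, lay at 0.899 to 2.01 CPM in all 6 libraries (0.37 ± 0.33, adjusted p = 0.541). Wdfy1 and Cyfip2 (-0.25 ± 0.06, adjusted p = 0.0036), also listed as differing between C57BL/6 substrains, were lower in KO libraries. Flanking or substrain alleles and the loss of Alpk1 cannot be told apart here.

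Most PBS differences had the same sign in the ADP-Hep libraries, which share no library with the PBS comparison. There, KO cells had 32.8% of all genes called higher and 32.0% lower. Of the 1397 genes called under PBS, 1078 (77.2%) had the same sign under ADP-Hep, against 60.7% of all genes tested. Calls in the same direction under both treatments numbered 943, of which 440 were higher and 503 lower, and 222 genes were called in opposite directions. Without KO library 1, the calls in the same direction under both numbered 596.

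Named genes fell on both sides of this split. Scd2 (1.30 ± 0.05 under ADP-Hep), Cd5l (1.64 ± 0.06), Pltp (1.51 ± 0.07), Cx3cr1 (-1.51 ± 0.05) and Arg1 (-3.21 ± 0.17) kept their direction. Saa3, by contrast, was lower in KO cells under ADP-Hep (-2.88 ± 0.06), where WT libraries averaged 433 CPM, and so were Ednrb (-1.77 ± 0.08) and Slc7a11 (-5.58 ± 0.20). Of the 25 cholesterol genes, 6 were higher and 10 lower under ADP-Hep (median 0.01), beside 20 and 0 under PBS. ER chaperones stayed on the low side, with 19 lower and 4 higher of 23 (median -0.36).

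**Figure D5:**
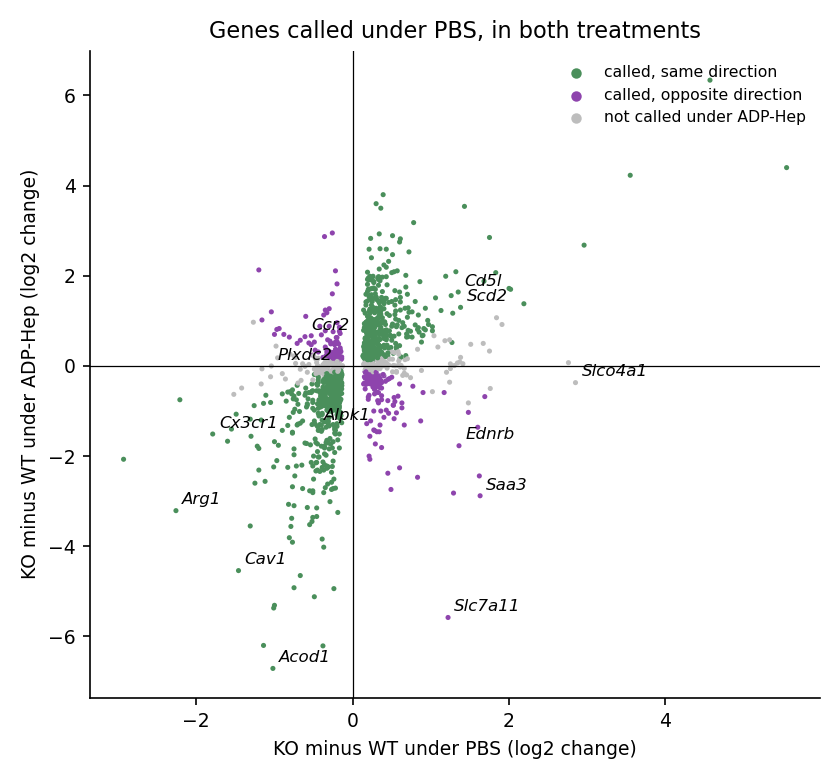
Each point is 1 of the 1397 genes called under PBS, with its KO minus WT log2 change under PBS on the x axis and under ADP-Hep on the y axis; green genes were called in the same direction (943), purple in opposite directions (222) and grey were not called under ADP-Hep (232). Acod1 (-6.71 under ADP-Hep) and Cav1 (-4.54) lie far down on the left, and Saa3, Ednrb and Slc7a11 lie to the right of 0 under PBS and below 0 under ADP-Hep.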

How the data were processed

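Mouse BMDM RNA was sequenced after library preparation with a stranded mRNA kit, per the labels' protocols. The authors deposited whole-number counts per Ensembl gene, 1 column per library. The submitters' processing notes name STAR, featureCounts, RSEM, DESeq2, FastQC, Trim Galore and the builds mm10 and hg38. Which tool made the counts, with what version, annotation and strand setting, is not given in the sources used here. From about 100 rows below the last row used, the KO columns sit 1 row below their gene IDs. For each row, log2 of the count plus 1 was averaged over the KO columns and over the WT columns. These averages correlated at 0.9965 in the 37542 rows used, at 0.042 below as deposited and at 0.9787 there after moving the KO columns up. The other 19206 of 56748 rows were therefore left out. No column of per-sample values was left unassigned (0), and 1 KO ADP-Hep column whose name matched no label kept its group with no number.

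Counts were scaled by TMM and filtered by filterByExpr (edgeR 4.0.16, R 4.3.3), leaving 12261 genes. A robust quasi-likelihood model of 4 group means over all 12 libraries was fitted, and p-values were Benjamini-Hochberg adjusted over all genes tested, with calls at 0.05. The fit was tested on simulated data. The biological coefficient of variation was 4.81%, and replicate pairs differed by more than sampling noise (chi-square per degree of freedom 1.97 to 10.6). Alternatives were other scalings and filters, DESeq2 1.42.0, limma 3.58.1 (voom), glmTreat, the 6 PBS libraries alone, a replicate block, the KO columns moved up, and each PBS library left out. Named genes were the 15 largest changes each way (a gene name, no overlap between groups, 5 CPM or more in the group with more), the 5 smallest p each way, the ALPK1 pathway genes, and up to 4 called members per list by p. The lists and tests were chosen with earlier results of these data known. Some genes, Csf3r and Mmp8 among them, stand in more than 1 list. Some results are not reported here.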

Additional observations from a re-analysis of the deposited data

Results flagged for a closer look

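For many genes the KO minus WT difference itself differed between PBS and ADP-Hep by the interaction test of the same edgeR model. This held for 960 of the 1397 genes called under PBS and for 103 of those named in the text. The share over all genes tested is not given here, and the same PBS libraries entered both tests. Under ADP-Hep, 32.8% of all genes were called higher and 32.0% lower in KO cells. The difference of differences (ADP-Hep minus PBS, log2) has its sign fixed by the choice of genes here. It is given for the named genes called in opposite directions under PBS and ADP-Hep. Of those higher under PBS and lower under ADP-Hep, it was most negative for Slc7a11 (-6.80), Saa3 (-4.51) and Ednrb (-3.13). The others were Tmem176a (-1.50), Fdft1 (-1.0), Adgre1 (-0.78), H2-K1 (-0.76), Atf3 (-0.75), Cyp51 (-0.75), Prdx1 (-0.67), Hmgcs1 (-0.58) and Cdkn1a (-0.54). Those lower under PBS and higher under ADP-Hep were Pde1c (1.78), Ank2 (1.77), Ccr2 (1.26), Kif23 (0.60), Tlr13 (0.50) and Cd93 (0.47). For Ccr2, KO cells were lower than WT under PBS (-0.61) and higher under ADP-Hep (0.65).

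In the part of the table left out of every comparison, 964 genes were tested after the KO columns were moved up by 1 row. Of these, 25 were called under PBS, 20 higher and 5 lower in KO. In the rows used, 1397 of 12261 genes were called (11.4%), 683 higher and 714 lower. The part left out thus had a smaller share of genes called, and its calls leaned more to higher. The reason was not tested.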

How the results depend on the processing

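The counts of 683 higher and 714 lower genes stayed within 1.5 times under other scalings, filters, DESeq2 (599 and 582), limma-voom (689 and 670), the 6 PBS libraries alone (607 and 594) and the KO columns moved up below the break. Against a 1.5-fold change, glmTreat called 15 and 16 genes, 18 of them in the same direction under ADP-Hep, and did not call Alpk1 (-0.45, adjusted p = 1). Leaving out 1 library gave 438 to 692 higher, 391 to 611 lower and 596 to 788 calls in the same direction under both treatments, the lowest each time without KO library 1. A replicate block raised the counts to 1083 higher and 1002 lower, but the numbers pair nothing the labels name, deviations of same-numbered libraries correlated at 0.183, 0.071 and 0.053, and not every library correlated best with its own number. Of 125 called genes named in the text, all were called under the other scalings and filters and by voom, 123 by DESeq2 (not Ank2 or Cd4), 123 in the 6-library fit (not Slco4a1 or Slc7a11), 124 with the block (not Slco4a1, adjusted p = 0.055), 118 to 123 with 1 library left out and 24 by glmTreat, with 0 reversed in any setting. The causes were not tested. Most called changes are under 1.5-fold and rest on 3 libraries per group, and genes with few counts are the least precise.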
